A study of Mus musculus with 84 samples.

Results

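Genes of the brain's blood vessels were followed in the central amygdalar nucleus (CeA) of mice that had drunk ethanol by choice. The 34 genes were chosen by name as known markers of endothelial cells (24 genes) and of mural cells (10 genes, of which 7 mark pericytes and 3 smooth muscle). They are 34 of the 43629 genes in the count table, and all 34 passed the filter on low counts that left 16320 genes to test. Endothelial cells line the vessels and, in the brain, form the blood-brain barrier: tight junctions seal the gaps between them, and transporters decide what enters or leaves. Pericytes wrap the capillaries, and smooth muscle cells ring the arteries and arterioles and set their width. Every animal had been offered ethanol, so drinking here is a graded measure and not a contrast with animals that had none.

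The animals were 43 female and 41 male HS-CC mice, an outbred stock that carries many natural variants from several inbred strains, with a median age of 15 weeks when preference testing began. After shorter periods with water alone and with weaker ethanol, each had a bottle of 10% ethanol beside a bottle of water for 13 weeks, until it was killed. The CeA was cut from frozen stained sections with a laser on both sides of the brain, and 1 stranded poly(A) library was made per animal, with total counts from 24118965 to 42036566. Mean preference, the share of all fluid taken from the ethanol bottle averaged over the 13 weeks, had a median of 0.229 in females and 0.153 in males, and the median of mean intake was 5.45 g/kg for females, with 2.75 g/kg for males.

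The tissue label was set against cell markers first. Gad1 and Slc32a1, which mark the inhibitory neurons that make up most of the CeA, had medians of 491 and 219.9 CPM (read counts scaled to a common library size with TMM factors), Sst had 350.4 and Prkcd 18.6 CPM. Slc17a7, a marker of excitatory cortical and basolateral neurons, ran from 13.0 to 2404 CPM with a median of 1359. That median was above the 491 CPM of Gad1, so the markers do not show libraries of CeA neurons alone. Choroid plexus genes also varied widely: Ttr, the transthyretin that this tissue makes in bulk, ran from 0.0988 to 23631 CPM. In bulk tissue, fewer cells of a type and less RNA per cell cannot be told apart.

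The endothelial genes of junction and adhesion were measured in every library. Cldn5, the main claudin of the barrier's tight junctions, had 13.2 CPM at the lowest, 24.6 at the median and 51.3 at the highest in females, and 15.6, 23.3 and 38.7 CPM in males. Pecam1, an adhesion molecule of endothelial contacts, had 7.88, 11.9 and 32.7 CPM in females and 8.02, 12.4 and 22.3 CPM in males. The ranges of the sexes overlapped in both genes. Cdh5, the cadherin of endothelial adherens junctions, Esam, a junctional immunoglobulin-family adhesion molecule, and Emcn, a sialomucin of the vessel surface, had medians of 8.12, 10.2 and 5.43 CPM over all animals.

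Among receptors and secreted proteins, Flt1, a receptor for VEGF that can act as a decoy, had 21.6, 36.4 and 71.3 CPM (lowest, median, highest) in females and 22.6, 35.9 and 63.8 CPM in males. Kdr, the main signalling receptor for VEGF, Tek, the angiopoietin receptor, and Tie1, its partner receptor, had medians of 8.49, 7.94 and 7.28 CPM over all animals. Vwf, the clotting factor stored in endothelial granules, spread far more, with 3.77, 16.2 and 86.0 CPM in females and 6.27, 14.7 and 40.9 CPM in males, a 22.8-fold range. Ly6c1 and Ly6a, membrane-anchored proteins of the Ly6 family, had 11.9-fold and 9.38-fold ranges around medians of 23.4 and 7.62 CPM. Egfl7, a protein secreted by endothelial cells, and Itm2a, a membrane protein, had narrower ranges of 3.54-fold and 3.06-fold around medians of 21.7 and 46.8 CPM.

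The transporters included the members of highest level. On a length-scaled measure (TPM), Slc2a1, the glucose transporter of the barrier, had the highest median of the 34 genes at 125 TPM, followed by Pltp, a phospholipid transfer protein, at 108 TPM. Abcc9 and Erg lay at the low end, with 1.76 and 2.21 TPM. Abcg2, an efflux pump, varied least of all members, from 9.73 to 21.03 CPM, a 2.16-fold range. Pltp had 47.9, 84.4 and 352 CPM in females and 46.5, 88.5 and 399 CPM in males, so that both sexes held a few libraries far above the rest. Slco1c1, a carrier of thyroid hormone, had 30.6, 57.2 and 144 CPM in females and 33.2, 62.2 and 132 CPM in males. Slco1a4, a carrier of organic anions, had 16.998, 32.3 and 56.1 CPM in females and 17.2, 35.4 and 53.7 CPM in males. Abcb1a, the efflux pump P-glycoprotein, and Mfsd2a, a lipid carrier that also restrains vesicle transport across the barrier, had medians of 18.2 and 40.4 CPM. The transcription factors were low, with medians of 4.27 CPM for Sox17, 6.19 for Sox18 and 2.50 for Erg.

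The pericyte genes ranged from Higd1b, the member of lowest median CPM, to Rgs5. Rgs5, a regulator of G-protein signalling, had 43.0, 75.3 and 121 CPM in females and 42.3, 66.5 and 156.7 CPM in males. Vtn, the matrix protein vitronectin, had 14.7, 48.0 and 141 CPM in females and 21.6, 41.4 and 83.0 CPM in males. Pdgfrb, the receptor through which endothelial PDGF recruits pericytes, was steady by comparison, with a 2.38-fold range around 18.7 CPM. Notch3, a receptor that mural cells need to mature, had a median of 12.8 CPM. Kcnj8 and Abcc9, the pore and regulatory subunits of one potassium channel, had medians of 2.06 and 4.44 CPM, and Higd1b 1.42 CPM.

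The 3 smooth muscle genes varied most of all the members relative to their level, together with Vwf and Ly6a. Acta2, the smooth muscle actin, had 2.31, 8.11 and 43.6 CPM in females and 1.47, 9.55 and 20.4 CPM in males. Tagln, an actin-binding protein, had 1.05, 5.00 and 25.9 CPM in females and 0.922, 4.52 and 12.7 CPM in males. Myh11, the smooth muscle myosin, had 1.80, 5.84 and 31.9 CPM in females and 1.44, 6.70 and 15.1 CPM in males. All 3 were highest in the library of female replicate 31 and lowest in that of male replicate 41. The ranges were 29.8-fold for Acta2, 28.1-fold for Tagln and 22.2-fold for Myh11. Their biological coefficients of variation were 0.592, 0.707 and 0.608, above those of 91.1%, 94.4% and 91.7% of all tested genes. Summed over the 3 genes, the level ran from 3.83 to 102 CPM, against 94.0 to 302 CPM for the 7 pericyte genes and 466 to 1035 CPM for the 24 endothelial genes.

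**Figure D1:**
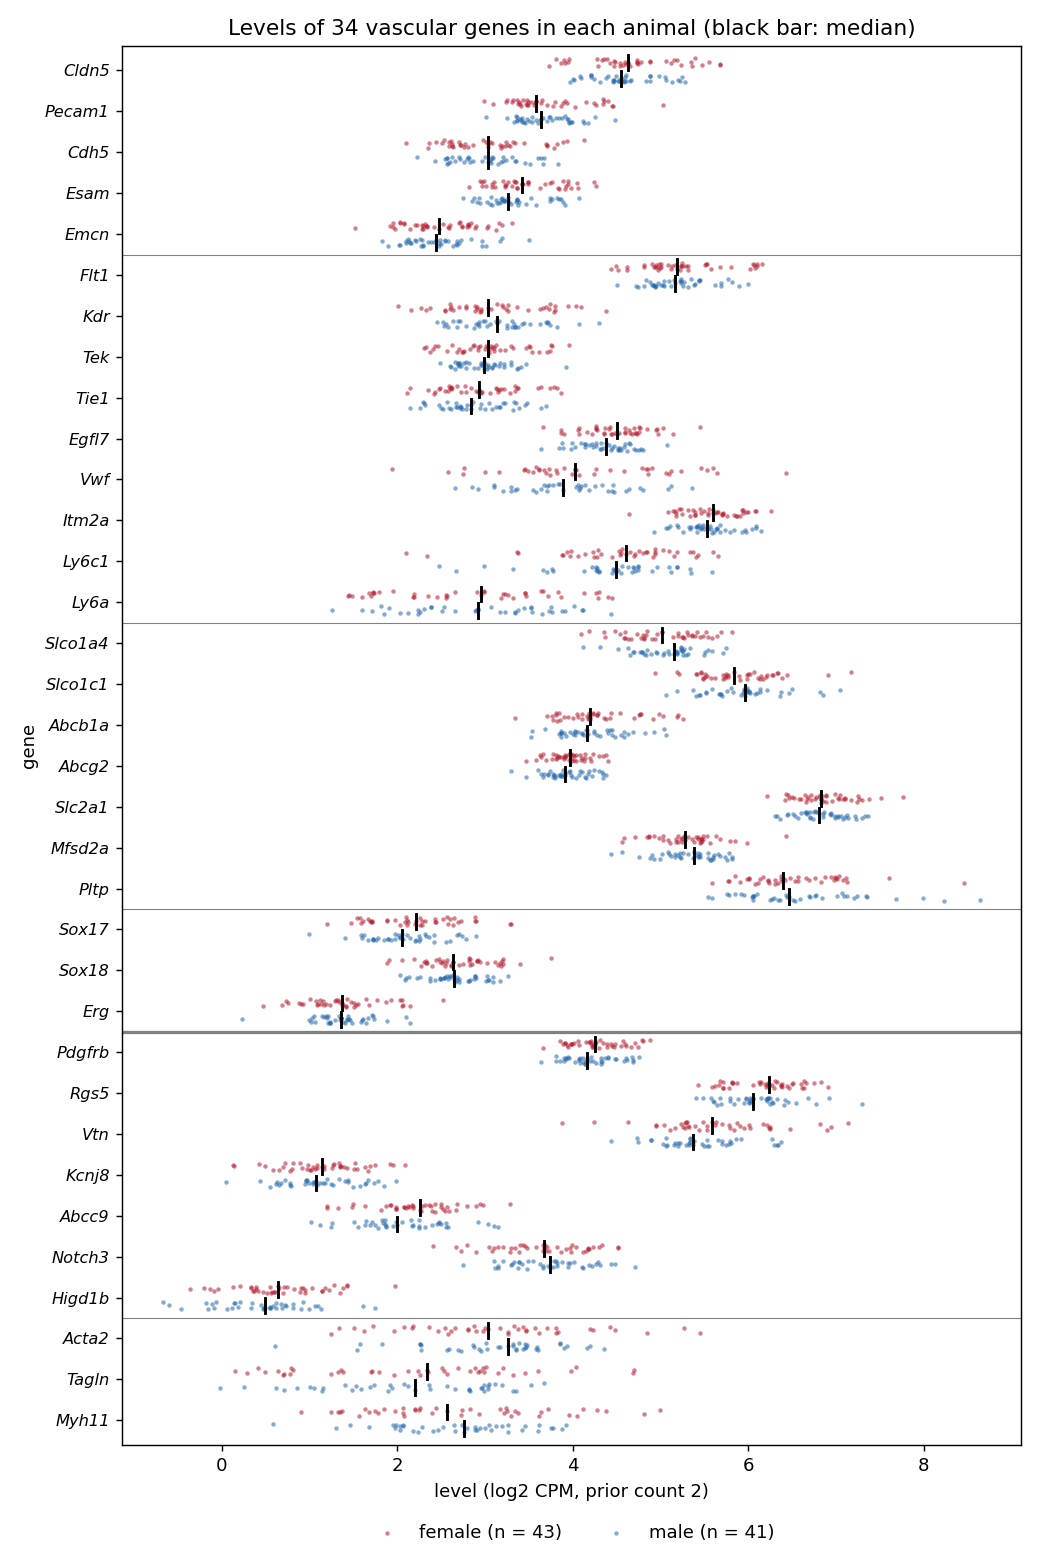
Level of each of the 34 genes (log2 CPM, prior count 2) in every animal, with 43 females above 41 males in each row and the median as a black bar. Thin lines part the groups of genes and the thick line parts endothelial from mural genes. Acta2, Tagln, Myh11, Vwf, Ly6c1 and Ly6a spread widest, Abcg2 least, and the sexes overlap in every row.

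The genes were then set against each other over the 84 animals. Most pairs of members had a positive r. The median Pearson r of log2 CPM was 0.330 over the 276 pairs of endothelial genes and 0.381 over the 45 pairs of mural genes. It was 0.351 over the 240 pairs of 1 endothelial and 1 mural gene. The median over all 133163040 pairs of tested genes was -0.0024. Their 5th to 95th percentiles were -0.431 and 0.452, so the medians of the members lay inside that spread. Of all those pairs 3.55% had an r over 0.5, while 83 of the 276 endothelial pairs, 13 of the 45 mural pairs and 68 of the 240 mixed pairs did. All of these r are descriptions; the points share library depth and tissue makeup.

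A core of 11 endothelial genes followed the rest of their class with an r of at least 0.7, a limit chosen after the values were seen. They were Cldn5, Pecam1, Cdh5, Esam, Flt1, Tek, Tie1, Abcb1a, Sox17, Sox18 and Erg, so junction proteins, growth factor receptors, an efflux pump and all 3 transcription factors. Among them the median r was 0.680, from 0.515 to 0.877, and the closest pair was Cdh5 and Flt1. A further 8 endothelial genes were intermediate, among them Vwf with 0.666, Slc2a1 with 0.631, Slco1a4 with 0.573, Kdr with 0.522 and Emcn with 0.511. The other 5 had an r below 0.3 with their class: Ly6a with 0.246, Pltp with 0.145, Egfl7 with 0.119, Mfsd2a with 0.0847 and Slco1c1 with 0.0214. Negative r occurred in 38 of the 276 endothelial pairs, the lowest of them between Sox17 and Slco1c1 (-0.325).

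**Figure D2:**
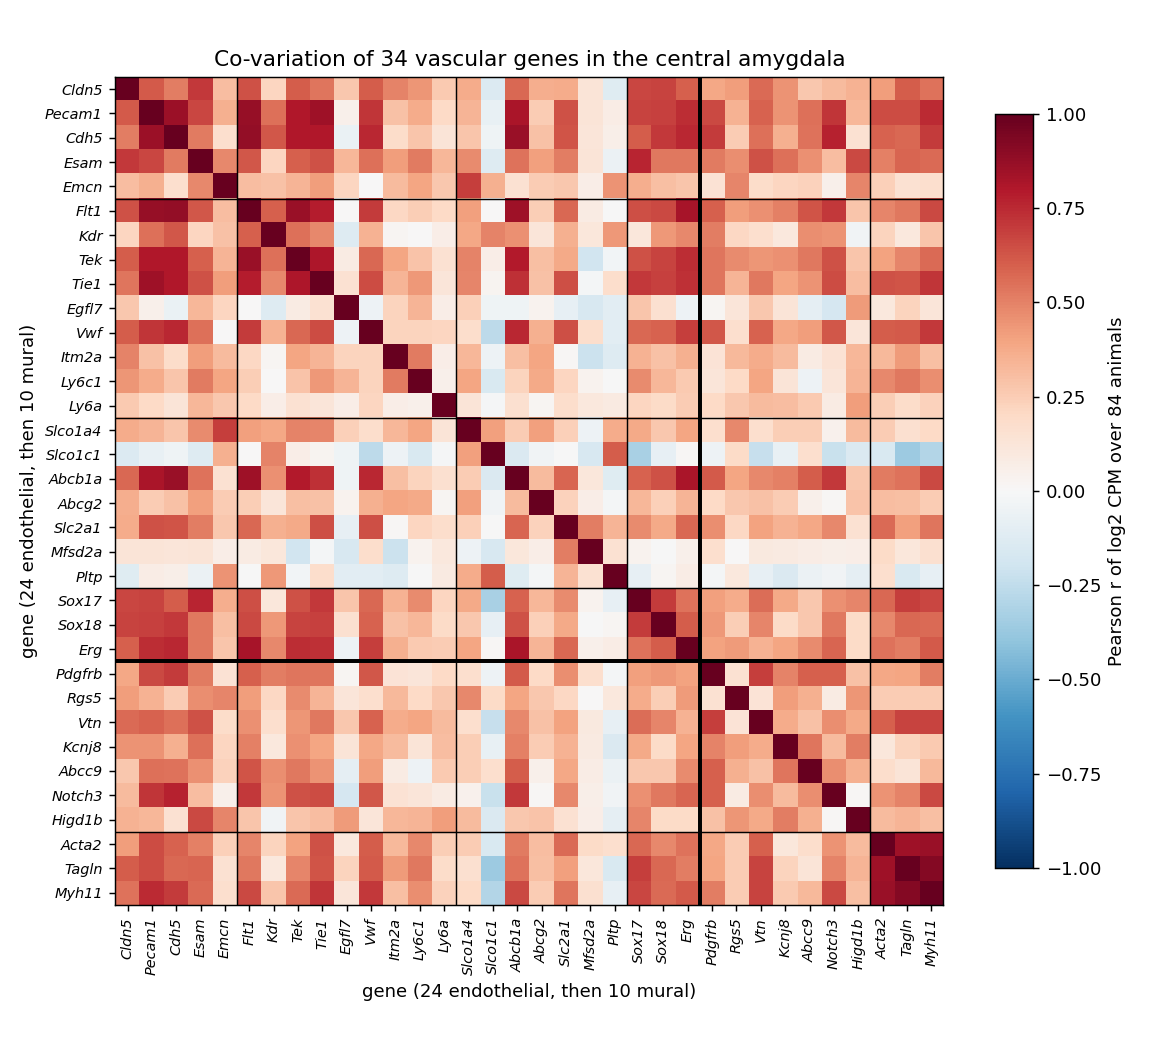
Pearson r of log2 CPM over 84 animals for each pair of the 34 genes, from blue (-1) to red (1), with the 24 endothelial genes before the 10 mural genes and thin lines between groups by role. Red blocks mark the endothelial core and the 3 smooth muscle genes, whose pairs reach 0.877 and 0.915. The rows of Egfl7, Ly6a, Slco1c1, Mfsd2a and Pltp are pale.

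Members that share a family or a role were compared in 12 pairs by permutation, with p-values adjusted over the 12. In 11 pairs r passed, 9 of them at the smallest p that 100000 permutations can give (1e-05, adjusted 1.33e-05). The test asks only whether r differs from 0, and libraries of mixed tissue share their makeup. Among all pairs of tested genes the 5th to 95th percentiles of r were -0.431 and 0.452. Many unrelated pairs could therefore pass too, and the share that would was not counted. Pecam1 and Cdh5 had an r of 0.858 (Spearman's rho 0.827), the angiopoietin receptor pair Tek and Tie1 0.810 (rho 0.764), and the VEGF receptors Flt1 and Kdr 0.597 (rho 0.564). Sox17 and Sox18 had 0.700 (rho 0.671) and Cldn5 and Cdh5 0.515 (rho 0.442). The channel subunits Kcnj8 and Abcc9 had 0.535 (rho 0.571), Pdgfrb and Notch3 0.599 (rho 0.576), Acta2 and Tagln 0.844 (rho 0.851) and Acta2 and Myh11 0.866 (rho 0.859). The permutation p of rho was 1e-05 in 8 of these 9 pairs (adjusted 1.5e-05) and 5e-05 for Cldn5 and Cdh5 (adjusted 6.67e-05).

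The carriers Slco1a4 and Slco1c1 had a lower r of 0.409 (permutation p = 0.00011, adjusted 0.000132; rho 0.348, permutation p = 0.0011, adjusted 0.00132). The efflux pumps Abcb1a and Abcg2 had 0.315 (permutation p = 0.00367, adjusted 0.004; rho 0.231, permutation p = 0.0335, adjusted 0.0365). Ly6a and Ly6c1, which both lie on chromosome 15, had 0.0514 and did not pass (permutation p = 0.644, adjusted 0.644; rho 0.0529, permutation p = 0.632, adjusted 0.632). With the 2 most extreme animals of the first gene removed, r stayed between 0.289 and 0.853 in the 11 pairs that passed. It was positive in each of them within either sex and within each of 4 runs of sample-sheet numbers, taken as possible batches. The r of Slco1a4 with Slco1c1 and of Abcb1a with Abcg2 lay inside the 5th to 95th percentiles of all pairs of tested genes (-0.431 to 0.452). Within sexes and runs the weakest were 0.195 for Abcb1a and Abcg2 in males and 0.199 for Slco1a4 and Slco1c1 in the third run.

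Endothelial and mural genes were compared as scores, the mean z-score of their members. The endothelial score followed the mural score with r = 0.827 (rho 0.801) over the 84 animals. Within females r was 0.828, within males 0.839, and within the 4 runs 0.817, 0.757, 0.876 and 0.778. The r was 0.766 with pericyte genes and 0.692 with smooth muscle genes, while pericyte and smooth muscle scores had 0.566 with each other. Of the 24 endothelial and 9 other mural genes, the single closest one was endothelial for 6 mural genes: Notch3 was closest to Cdh5 (0.766), Pdgfrb to Cdh5 (0.703), Abcc9 to Flt1 (0.627), Higd1b to Esam (0.659), Kcnj8 to Esam (0.550) and Rgs5 to Emcn (0.485). Set against whole classes, 5 of these 6 had a higher r with the rest of the mural genes than with the endothelial genes, mostly by little. The gap was widest for Pdgfrb (0.674 and 0.590). It was narrow for Kcnj8 (0.518 and 0.483), Higd1b (0.468 and 0.430), Notch3 (0.570 and 0.558) and Abcc9 (0.515 and 0.504). Rgs5 alone had a lower r with mural genes (0.365 and 0.502). Vtn was closest to Pdgfrb (0.693), and the 3 smooth muscle genes to each other. Tagln and Myh11 had the highest r of all pairs, 0.915.

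Other cell types moved with these scores. The endothelial score had an r of 0.487 with 10 genes of myelinating oligodendrocytes and of -0.516 with 6 genes of cortical and basolateral neurons. The smooth muscle score had 0.656 with 5 genes of perivascular macrophages and 0.552 with 15 genes of leptomeningeal and perivascular fibroblasts. The mural score had -0.396 with 14 choroid plexus genes and the endothelial score -0.160. The endothelial score includes members with a positive r, among them Pltp (0.836) and Slco1c1 (0.600). Its 11 core genes all had a negative r, from -0.427 for Sox17 to -0.158 for Erg. After the scores of choroid plexus, fibroblast, myelin and cortical or basolateral genes were regressed out, the r of endothelial with mural score was 0.740. The median over endothelial pairs with mural genes was 0.228. The smooth muscle score moved most: its r with the endothelial score was then 0.445, and with the pericyte score 0.228. Endothelial and pericyte scores had 0.679.

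**Figure D3:**
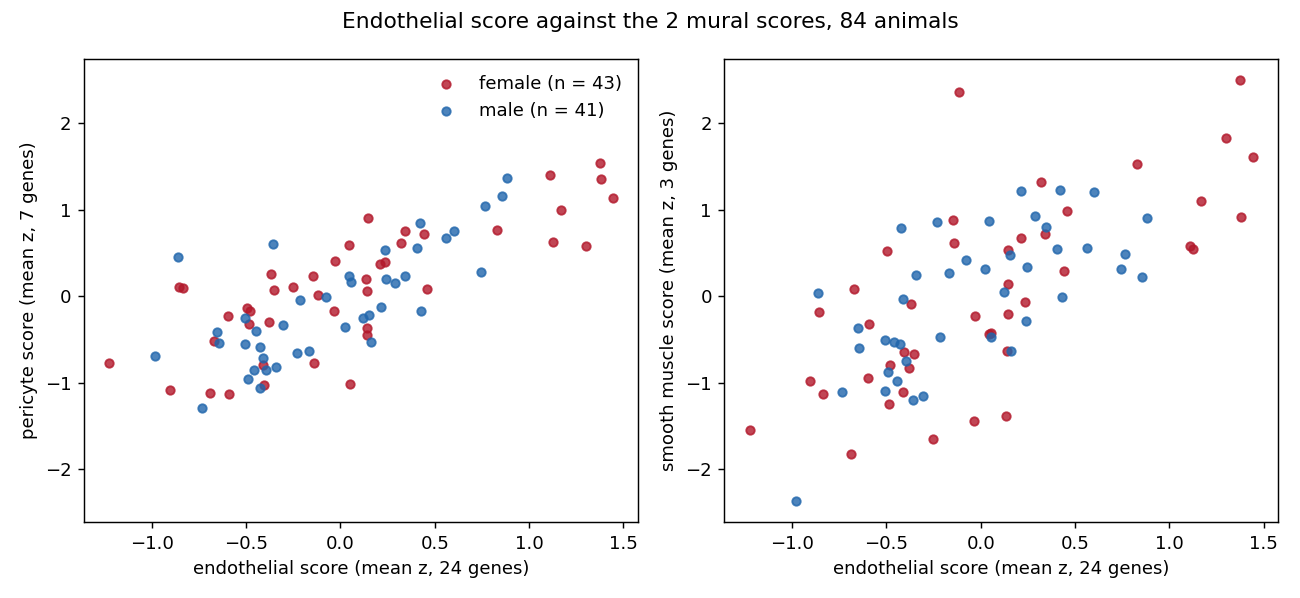
Endothelial score (mean z of 24 genes, horizontal) against the pericyte score (mean z of 7 genes, left) and the smooth muscle score (mean z of 3 genes, right) in 43 females and 41 males. Both panels slope upward, with r = 0.766 on the left and 0.692 on the right, and the sexes overlap. Scores of other cell types are not regressed out here.

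Outside the 34 genes, those that followed the endothelial score most closely were Eltd1 (0.858), Eng (0.848), Robo4 (0.835), She (0.828), Gpr116 (0.819), Nos3 (0.815), Tmem204 (0.794), Flt4 (0.789), Ushbp1 (0.787) and Ptprb (0.778). Eng is a co-receptor for TGF-beta ligands, Robo4 an endothelial guidance receptor, Nos3 the endothelial nitric oxide synthase and Ptprb a phosphatase that acts on Tek. The mural score was followed most closely by Myl9 (0.840), Nos3 (0.796), Smtn (0.789), Acvrl1 (0.782), She (0.767), Mrvi1 (0.767), Gpr116 (0.763), Ano1 (0.763), Pear1 (0.761) and Tpm2 (0.752). Myl9, Smtn and Tpm2 encode a myosin light chain, smoothelin and a tropomyosin of contractile cells. Nos3, She and Gpr116 stand in both sets. An r over 0.5 was found for 507 genes outside the members with the endothelial score and for 556 with the mural score, and the medians over all such genes were -0.0158 and -0.0227.

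Whole lists of vessel genes were less uniform than the genes named above. Of 40 other endothelial genes 14 had an r over 0.5 with the endothelial score. Their median was 0.293, from -0.431 for Car4 to 0.835 for Robo4. Of 26 other mural genes 11 had an r over 0.5 with the mural score. Their median was 0.475, from -0.512 for Trpc6 to 0.840 for Myl9. Signalling genes were mixed as well. Of 18 genes of VEGF, angiopoietin and PDGF signalling, 4 had an r over 0.5 with the endothelial score, and the range ran from -0.443 for Figf to 0.848 for Eng with a median of 0.197. Of 10 vascular Notch genes 3 did, with a median of 0.180, from -0.283 for Hey1 to 0.746 for Notch4. Of 15 genes of the Wnt signal that maintains the barrier 3 did, with a median of 0.207, from -0.601 for Ctnnb1 to 0.688 for Lef1. Of 12 genes of the vascular basement membrane 2 did, with a median of 0.288, led by Nid1 at 0.619.

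The 5 endothelial genes that stood apart from their class were set against the tested genes outside the members. Pltp was closest to Slc4a2 (0.931), Col9a3 (0.921) and Elmo3 (0.913), and Slco1c1 to Abhd2 (0.767), Ezr (0.758) and Sulf1 (0.754). Both followed the choroid plexus score, Pltp with r = 0.836 and Slco1c1 with r = 0.600, and their r with each other was 0.609. In the 34 libraries with a choroid plexus score above 0 the r was 0.926 for Pltp and 0.827 for Slco1c1, while in the 50 libraries below 0 it was 0.346 and -0.156. Other endothelial genes also had a positive r above 0, among them Kdr with 0.597, Emcn with 0.498, Slco1a4 with 0.478, Slc2a1 with 0.446 and the core gene Tie1 with 0.387, while Flt1 had 0.153 and Sox17 -0.183. Below 0 these 7 genes lay between -0.140 and 0.165. Slco1c1 is known in both the barrier endothelium and the choroid plexus.

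Mfsd2a was closest to Fkbp5 (0.671), a co-chaperone of the glucocorticoid receptor, Sdc4 (0.666) and Tekt4 (0.657). Next came Gjb6 (0.636), one of the astrocyte markers used here, Plin4 (0.619) and Tsc22d3 (0.618), a gene known to be induced by glucocorticoids. With the score of 12 astrocyte genes Mfsd2a had an r of 0.448, against 0.0847 with the rest of its class. Its closest member was Slc2a1 (0.513). Egfl7 was closest to Rpl7a (0.754) and Rexo4 (0.739), which start 0.331 and 0.374 Mb from it on chromosome 2. Of the 10 genes outside the members that were most like Egfl7, 3 lay on chromosome 2, which holds 8.03% of tested genes. These 3 were within 20 Mb of it, and the share of tested genes in that window was not counted. For Ly6a it was 5 of 10 on chromosome 15, which holds 3.88% of tested genes. These 5 were also within 20 Mb, among them Tmprss6 (0.514), Gpt (0.438) and Recql4 (0.410). Ly6a had no close neighbour: all of its 10 but Tmprss6 lay below 0.452, the 95th percentile of r over all pairs of tested genes. Its closest member was Higd1b (0.418).

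**Figure D4:**
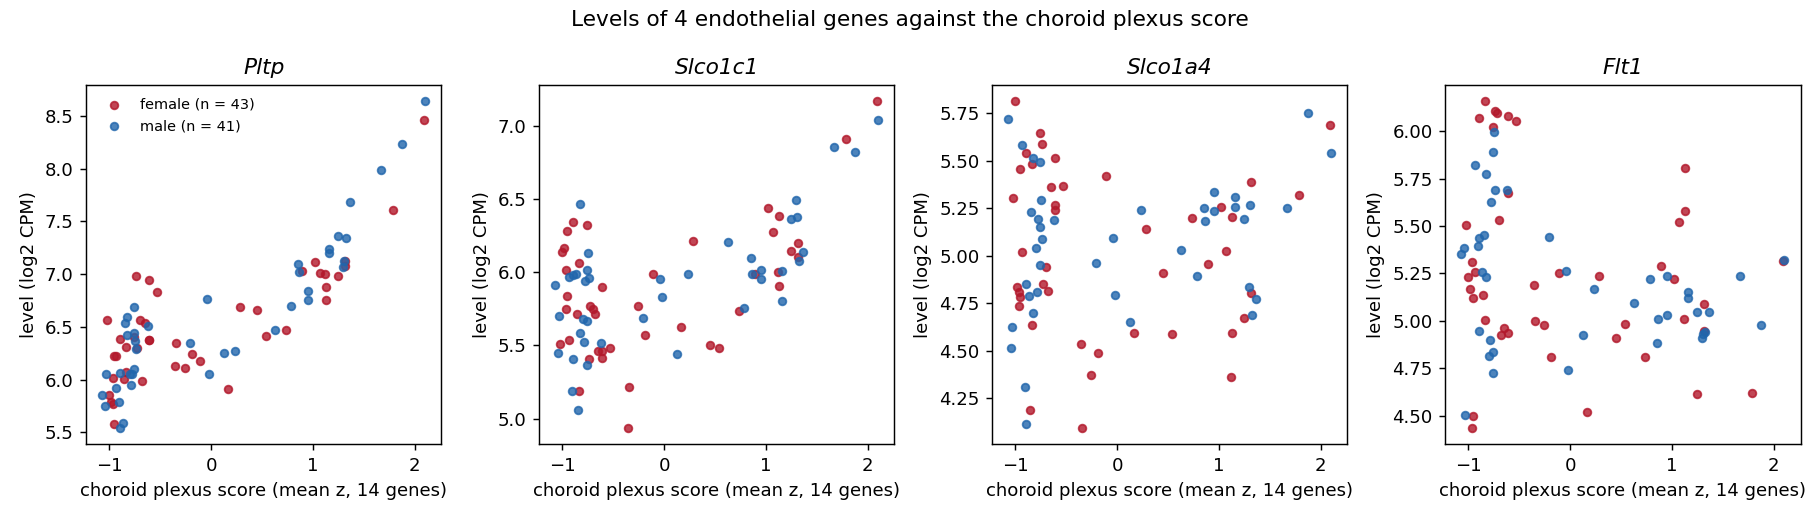
Level of Pltp, Slco1c1, Slco1a4 and Flt1 (log2 CPM, vertical) against the choroid plexus score (mean z of 14 genes, horizontal) in 43 females and 41 males. Pltp and Slco1c1 climb with the score among libraries above 0, where r is 0.926 and 0.827. Slco1a4 has 0.478 there and Flt1 0.153.

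A group of 4 members lies within 1178 kb of chromosome 6, at chr6:141524386-142702274 (GRCm38, the table's coordinates): Slco1c1, Slco1a4, Kcnj8 and Abcc9. The 2 carriers went together (0.409) and so did the 2 channel subunits (0.535), whereas the r of a carrier with a channel subunit ran from -0.076 to 0.248.

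The upstream sequence of 2 core genes and of the 2 genes tied to the choroid plexus score is shown because Erg, itself a core member, belongs to the ETS family, whose members bind around GGAA. RefSeq promoter windows (GRCm38.p6) were given for 23 of the 34 members, and the 250 bases before the start are printed on the gene's strand, with AGGAAG or CAGGAA on either strand in capitals. The windows are chr5:147726012-147726261 (minus strand) for Flt1, chr4:94739039-94739288 (plus) for Tek, chr6:141524104-141524353 (plus) for Slco1c1 and chr2:164857709-164857958 (minus) for Pltp.
Flt1: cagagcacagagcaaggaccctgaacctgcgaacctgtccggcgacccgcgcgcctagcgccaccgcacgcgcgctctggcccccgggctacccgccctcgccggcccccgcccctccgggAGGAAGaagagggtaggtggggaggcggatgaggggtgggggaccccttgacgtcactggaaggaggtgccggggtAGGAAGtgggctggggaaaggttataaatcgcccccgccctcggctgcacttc
Tek: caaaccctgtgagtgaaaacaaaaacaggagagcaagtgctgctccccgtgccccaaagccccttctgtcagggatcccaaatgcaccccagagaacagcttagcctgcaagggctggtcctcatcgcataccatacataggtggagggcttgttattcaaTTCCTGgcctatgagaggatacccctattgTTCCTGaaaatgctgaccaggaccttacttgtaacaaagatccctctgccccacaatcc
Slco1c1: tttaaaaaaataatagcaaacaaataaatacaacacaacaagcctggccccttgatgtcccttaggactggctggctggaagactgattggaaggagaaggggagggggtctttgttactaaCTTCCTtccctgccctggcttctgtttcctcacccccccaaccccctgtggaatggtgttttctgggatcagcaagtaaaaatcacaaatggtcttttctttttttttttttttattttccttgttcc
Pltp: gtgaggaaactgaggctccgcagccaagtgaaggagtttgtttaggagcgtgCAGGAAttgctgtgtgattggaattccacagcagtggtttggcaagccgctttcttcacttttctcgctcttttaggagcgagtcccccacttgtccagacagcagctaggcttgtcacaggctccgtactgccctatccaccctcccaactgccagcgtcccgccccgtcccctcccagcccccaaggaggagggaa

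The 2 motifs can overlap in CAGGAAG. At least 1 of them was found in 15 of the 23 genes, or 60.0% of their 30 windows, and in 41.2% of all 32851 windows. The core genes Flt1 and Tek had 2 capital stretches each, and Slco1c1 and Pltp 1 each. A match is a description of the letters and not a binding site.

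Drinking was then set against each gene, to ask whether vessel genes go with how much ethanol an animal chose. In none of the 12 comparisons did any of the 34 genes pass an adjusted p of 0.05 in edgeR's quasi-likelihood test. For mean preference in all 84 animals, 0% of the 16320 tested genes passed, and 3 members had an unadjusted p under 0.05, where 3.94% of all tested genes did. All 3 were transporters. Slco1a4 had a slope of 0.32 ± 0.13 (log2 change per 0.5 rise in preference ± SE; p = 0.0144), Slco1c1 0.35 ± 0.15 (p = 0.0176) and Pltp 0.43 ± 0.21 (p = 0.0455), each with an edgeR adjusted p of 1. The median slope was -0.03 over endothelial and 0.12 over mural genes, beside -0.0016 over all tested genes. Of the 34 slopes 19 were positive, where 49.2% of all tested genes had a positive slope. The 11 core endothelial genes had slopes from -0.15 ± 0.13 for Sox18 (p = 0.234, the lowest p among them) to 0.04 ± 0.15 for Tie1, and Flt1 had -0.04 ± 0.15.

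By sex, mean preference again gave 0 members past the threshold, with 0% of all genes called in either sex. In females 4 members had an unadjusted p under 0.05, where 6.95% of all genes did: Pltp with 0.72 ± 0.22 (p = 0.00243), Slco1c1 with 0.49 ± 0.19 (p = 0.0139), Egfl7 with 0.36 ± 0.16 (p = 0.0334) and Higd1b with 0.52 ± 0.24 (p = 0.0368), at edgeR adjusted p of 0.477 to 0.651. In males 0 did, where 1.65% of all genes did, and the lowest p was that of Slco1a4 with 0.31 ± 0.17 (p = 0.0744), followed by Pdgfrb with -0.22 ± 0.15 (p = 0.141) and Abcg2 with -0.15 ± 0.13 (p = 0.247). The difference between the sexes' slopes was tested directly: 0 members passed, as did 0% of all genes. An unadjusted p under 0.05 was reached by Egfl7 with a female minus male difference of 0.52 ± 0.23 (p = 0.0294) and Higd1b with 0.78 ± 0.38 (p = 0.0427), where 3.24% of all genes reached it. Pdgfrb followed with 0.36 ± 0.20 (p = 0.0725), and these edgeR adjusted p were 0.999.

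Preference in week 1 asks about drinking near its start. Over all animals 0.0306% of all genes passed and 0 members, and Acta2 alone among the members had an unadjusted p under 0.05, with 0.58 ± 0.27 (p = 0.0308), where 3.25% of all genes did. Myh11 had 0.54 ± 0.28 (p = 0.0564) and Slco1a4 0.23 ± 0.12 (p = 0.0603). In females, with 0% of genes called, Egfl7 had 0.44 ± 0.16 (p = 0.0077), Acta2 0.95 ± 0.41 (p = 0.0257) and Slco1c1 0.40 ± 0.20 (p = 0.0547). So 2 members were under 0.05 unadjusted, where 2.26% of all genes were. In males, with 0.0368% of genes called, the lowest were Rgs5 with 0.32 ± 0.16 (p = 0.0545), Slco1a4 with 0.25 ± 0.15 (p = 0.0917) and Sox18 with -0.23 ± 0.14 (p = 0.115), so 0 were under 0.05, where 5.17% of all genes were. The edgeR adjusted p of the members named for week 1 were 0.953 to 1. The r of Acta2 with week 1 preference was -0.177, 0.37, -0.084 and 0.441 within the 4 runs.

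Preference in week 13 asks about drinking at its end. Over all animals, with 0% of genes called, Slco1c1 had 0.28 ± 0.11 (p = 0.0175), Pltp 0.36 ± 0.17 (p = 0.0334) and Esam -0.15 ± 0.10 (p = 0.135), at edgeR adjusted p of 0.673 to 0.927. Of all genes 6% had an unadjusted p under 0.05, and 2 of the 34 members did. In females, with 0.0368% of genes called, Pltp came closest to the threshold of all members in any comparison, with 0.62 ± 0.17 (p = 0.000705, edgeR adjusted p = 0.0791). Slco1c1 had 0.35 ± 0.15 (p = 0.0246, adjusted 0.419) and Acta2 0.52 ± 0.33 (p = 0.124, adjusted 0.812), so 2 members were under 0.05 unadjusted, where 8.67% of all genes were. In males, with 0% called, Slco1a4 had 0.22 ± 0.13 (p = 0.105), Abcg2 -0.15 ± 0.10 (p = 0.147) and Kcnj8 0.22 ± 0.18 (p = 0.231), all at an edgeR adjusted p of 0.984. None of the members was under 0.05 unadjusted there, where 3.74% of all genes were.

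Mean intake, as ethanol mass relative to body mass (g/kg), gave the lowest unadjusted p among the members. Slco1c1 had 0.53 ± 0.13 (log2 change per 10 g/kg ± SE; p = 0.000175, edgeR adjusted p = 0.124), Pltp 0.57 ± 0.20 (p = 0.00566, adjusted 0.264) and Slco1a4 0.33 ± 0.13 (p = 0.0108, adjusted 0.332). No member passed, where 0.049% of all genes did, and these 3 were under 0.05 unadjusted, where 7.87% of all genes were. The r of Slco1c1 with intake was 0.505 in females and 0.216 in males, and 0.336, 0.335, 0.201 and 0.353 within the 4 runs. That of Pltp was 0.46 in females and 0.0878 in males, and 0.172, 0.439, -0.305 and 0.256 within the runs. These comparisons use the same animals and are not independent of each other.

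**Figure D5:**
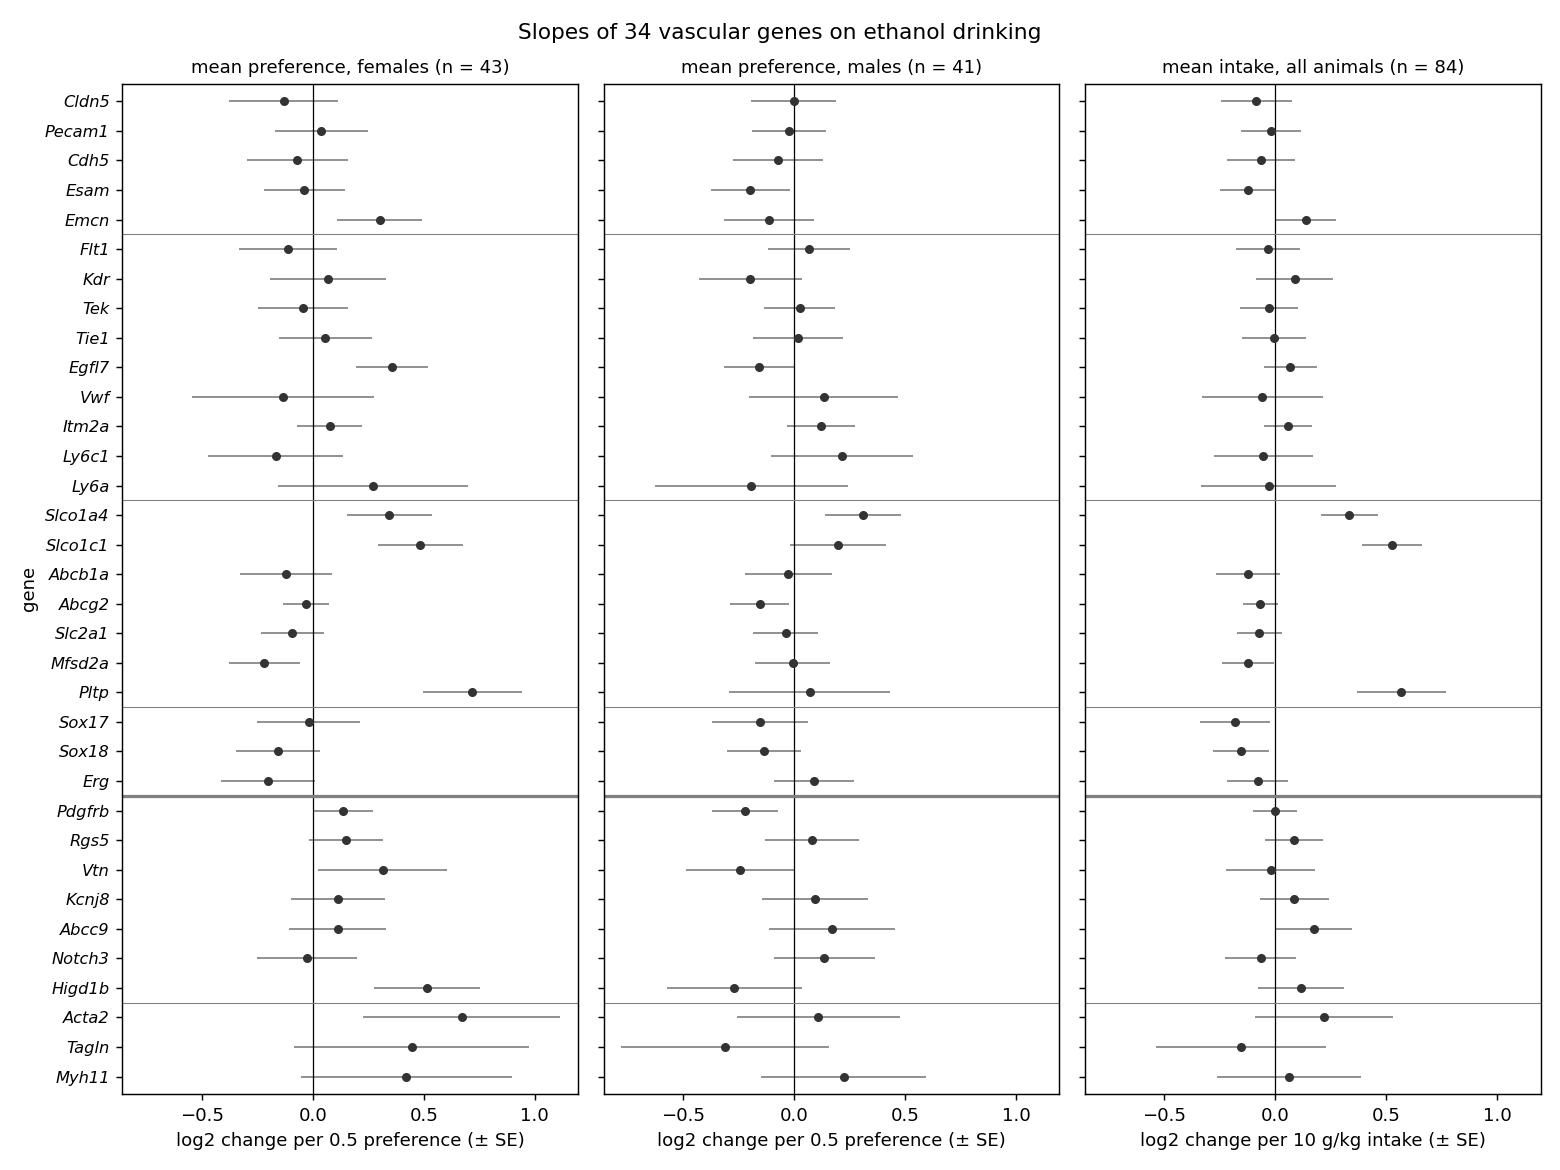
Slope of each gene (point, ± SE) on mean preference in 43 females (left) and 41 males (middle), as log2 change per 0.5 preference, and on mean intake in all 84 animals (right), as log2 change per 10 g/kg. Points lie on both sides of 0, and Pltp, Slco1c1 and Slco1a4 stand to the right in the intake panel at 0.57, 0.53 and 0.33.

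The choroid plexus genes were set against drinking as well. The r of their score was 0.176 with mean preference, 0.232 with mean intake and 0.0012 with week 1 preference over all animals. With week 13 preference it was 0.387 in females and 0.024 in males. The cause of the slopes of Pltp and Slco1c1 was not tested. All 14 choroid plexus genes had a positive slope on mean preference with a median of 1.35, where 49.2% of all tested genes had a positive slope. All 12 ependymal genes had a positive slope too, and none of either list passed. Genes of 1 cell type share the tissue makeup of the libraries, so these are not counts of separate results. The 4 libraries of highest choroid plexus score were those of male replicate 33, female replicate 38, male replicate 17 and female replicate 17. They held 399, 352, 301.0 and 194.998 CPM of Pltp, which were the 3 highest levels and the sixth, and 132, 144, 113 and 120.4 CPM of Slco1c1. Their animals' mean intakes were 0.453, 14.8, 7.72 and 13.5 g/kg. With the choroid plexus score in the fit, the slope on intake was 0.06 ± 0.12 for Pltp (edgeR p = 0.648), 0.32 ± 0.12 for Slco1c1 (p = 0.0075) and 0.33 ± 0.13 for Slco1a4 (p = 0.0154). Without the 4 libraries it was 0.25 ± 0.19 for Pltp (p = 0.185), 0.33 ± 0.13 for Slco1c1 (p = 0.015) and 0.28 ± 0.14 for Slco1a4 (p = 0.0576). For week 13 preference in females, Pltp had 0.17 ± 0.13 with the score in the fit (p = 0.199) and 0.27 ± 0.15 without the 4 libraries (p = 0.0828). For mean preference in females without the 4 libraries, Pltp had 0.24 ± 0.19 and Slco1c1 0.13 ± 0.17. Both of these alternatives were chosen after seeing the data, and 0 members passed in any of their fits.

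The other vessel genes gave no call for mean preference in all animals. Among the lists the lowest p of each were Nrp1 with 0.48 ± 0.22 (a VEGF co-receptor; p = 0.0281), Hey2 with 0.30 ± 0.14 (a Notch target; p = 0.0372), Fzd6 with 0.30 ± 0.17 (a Wnt receptor; p = 0.0817), Rassf9 with 0.85 ± 0.29 (p = 0.0044), Vcam1 with 0.29 ± 0.17 (an adhesion molecule; p = 0.0926) and Art3 with 0.26 ± 0.14 (p = 0.0752), each at an edgeR adjusted p of 1. The next in these lists were Angpt2 with 0.40 ± 0.24, Dll1 with -0.16 ± 0.10, Tspan12 with -0.10 ± 0.09, F11r with 0.42 ± 0.21, Efnb2 with -0.09 ± 0.12 and Cald1 with 0.19 ± 0.12. Of all tested genes 49.2% had a positive slope and 3.94% an unadjusted p under 0.05. Positive slopes were found in 9 of 18 VEGF, angiopoietin and PDGF genes, 7 of 10 Notch genes, 9 of 15 Wnt genes, 18 of 40 other endothelial genes, 4 of 11 arterial and venous genes, 15 of 26 other mural genes and 10 of 12 basement membrane genes. An unadjusted p under 0.05 was found for 1, 1, 0, 1, 0, 0 and 4 genes of these lists in the same order. The basement membrane genes were led by Col4a1 with 0.30 ± 0.12 (p = 0.0155) and Nid2 with 0.98 ± 0.41 (p = 0.0185).

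Between the sexes 0 members passed, where 0.0919% of all genes did. The 4 with an unadjusted p under 0.05 were all higher in females, where 3.81% of all genes reached it in either direction: Vtn with a log2 female over male difference of 0.27 ± 0.13 (p = 0.0361), Vwf with 0.37 ± 0.18 (p = 0.0369), Esam with 0.16 ± 0.08 (p = 0.0425) and Egfl7 with 0.15 ± 0.07 (p = 0.0429). Their edgeR adjusted p were 0.986. The median difference was 0.07 over endothelial and 0.18 over mural genes, beside -0.0039 over all tested genes. Of the 34 differences 27 were positive, where 47.7% of all tested genes had a positive difference. Many members vary together, so these are not 27 separate results.

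Some counts could be shared with neighbours. Pltp shares 495 exonic bases, 19.3% of its exons, with Ctsa on the opposite strand, whose median was 120.1 CPM and whose r with Pltp was 0.320. Tagln shares 65 exonic bases with Pcsk7, Egfl7 64 with Agpat2 and 264 with Gm20532 on its own strand, Notch3 488 with Gm17276 and Sox17 804 with an untested antisense gene. Ly6c1 has a close paralog in Ly6c2 (median 1.57 CPM, r = 0.563), and Abcb1a in Abcb1b (2.205 CPM, r = -0.0618). Without the strand setting of the counting, reads of overlapping antisense genes cannot be told apart.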

How the data were processed

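The authors deposited raw counts per gene, described in the labels as not normalized. The submitters' processing notes name FastQC, STAR, Subread, featureCounts 1.6.0 and DESeq2 and mouse build GRCm38 (mm10). Annotation release, strand setting and filters: not given in the sources used here. Left out were 5 empty columns and 3 that held undetermined reads, and 27 symbols turned into dates were recovered by identifier. Total counts had a median of 31573088.5, no 2 libraries were identical, and the lowest median count of a member was 46.5 (Higd1b).

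Genes were kept by filterByExpr (minimum count 10, minimum total 15, sexes as groups). Counts were TMM-scaled and fitted with edgeR 4.0.16 (R 4.3.3), robust quasi-likelihood, with sex as a term where both sexes entered, with Benjamini-Hochberg adjustment over 16320 genes at a threshold of 0.05. Slopes are log2 changes ± SE per 0.5 preference or per 10 g/kg. CPM rest on TMM-scaled totals (log2 CPM add a prior count of 2), and TPM used exonic lengths. Scores are mean z-scores of log2 CPM. On simulated data with 200 genes changed by 1 log2 unit per 0.5 mean preference in all animals, 87.5% were recovered with 6 false calls among 16320 genes. The largest member slope in that comparison was 0.43. Slopes of that size, fits within 1 sex and tissue makeup shared between genes were not simulated, so the 87.5% does not carry over to them. Alternatives were DESeq2 1.42.0, DESeq2 size factors, limma-voom 3.58.1, no filter, the run of sample-sheet numbers as covariate, and leaving out the 2 animals of most extreme drinking.

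Family and lane are not given per animal here, and up to 3 animals came from 1 family per the labels, so the animals were not fully independent. Replicate numbers follow accession order. The members and lists were chosen with earlier results of these data known. Named in each comparison were the 3 members of lowest p and any past the threshold. Any other member with an unadjusted p under 0.05 was named after its values were seen. Outside the members, the 10 genes of highest r with each score and up to 2 genes of lowest p in each vessel list were named. The further neighbours of single members were named after their values were seen.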

Additional observations from a re-analysis of the deposited data

How the results depend on the processing

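The count of members past the threshold was 0 in 84 of the 85 alternative fits of the 12 comparisons. The exception was DESeq2 for week 13 preference in females, which called 1 member, Pltp (slope 0.61 ± 0.18, DESeq2 adjusted p = 0.0494), and 1.26% of all tested genes, against 0.0368% by edgeR. Of 255 alternative slopes of the members named for lowest p, 0 changed sign. Pltp on mean intake ranged from 0.06 to 0.58, with the lowest value when the choroid plexus score was in the fit. Slco1c1 on intake ranged from 0.32 to 0.53. In the 11 comparisons with drinking, genes called among all tested ranged from 10 to 91 without the filter on low counts, 0 to 24 with run as covariate, 0 to 1 with limma-voom and 0 to 7 without the 2 extreme animals, against 0 to 8 in the fits reported. For the sex difference they were 74, 14 and 12 under the first 3 of these, against 15, and leaving out extreme drinkers was not run. After residuals of 4 other cell type scores, an alternative chosen after seeing the data, the median r was 0.226 within mural genes. It was 0.228 between endothelial and mural genes, and the r of the 2 scores was 0.740. The r of the endothelial with the smooth muscle score fell from 0.692 to 0.445. The cause was not tested. No paired analysis was possible because the replicate numbers follow accession order and pair nothing. Members with medians near 2 CPM, such as Kcnj8 and Higd1b, rest on median counts of 71 and 46.5 per library, and the SE of single slopes limits what could be seen: the median SE of the members on mean preference was 0.21 in females and 0.20 in males.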
